A study of Homo sapiens with 6 samples.

Results

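The DNA replication genes described here are 46 genes of the chromosomal replication machinery, taken by symbol from the deposited tables, of 16327 genes with counts. All 46 had enough reads to be tested, and they were divided into 6 role classes: 10 licensing genes, 6 of helicase activation, 9 of polymerase and primase, 11 of the sliding clamp, single-strand binding and ligation, 3 of nucleotide supply and 7 of chromatin assembly and fork control. RNA came from HN12 cells, a line of human origin from a squamous carcinoma of the head and neck. The cells received the solvent DMSO (Control, 3 libraries) or CPI-613 (3 libraries) for 24 h, at a dose not given in the labels. CPI-613 is a lipoate analogue known to act on lipoate-dependent mitochondrial dehydrogenases. The labels do not say whether the libraries were separate cultures, so the spread behind every p-value may be technical.

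Replication starts when the origin recognition complex, CDC6 and CDT1 load the MCM2 to MCM7 helicase onto DNA in G1, a step called licensing. CDC45 and the GINS complex then activate the helicase, the primase and the alpha, delta and epsilon polymerases copy the strands, and PCNA, a ring loaded by replication factor C, holds polymerases and ligase on DNA. Ribonucleotide reductase and thymidylate synthase supply the nucleotides. Many of these genes are transcribed around the G1 to S transition under E2F factors, so in a growing line their RNA is commonly read beside the share of cells in S phase. In bulk RNA, fewer cells in S phase and less RNA per cell cannot be told apart.

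By group median the replication genes lay slightly lower with CPI-613, and no single gene passed the test on counts as deposited. Library by library the groups overlapped. The median log2 ratio of the 46 genes to the Control mean was -0.06 in CPI-613 replicate 3, above -0.08 and -0.14 in Control replicates 1 and 3. The genes share the same libraries, so the counts of genes below are not independent. The median log2 fold change was -0.20 over the 46 genes and 0.02 over all 12671 genes tested. Estimates were below 0 for 38 of the 46 genes, against 48.2% of all genes, and ran from -0.87 in POLA1 to 0.36 in POLD2. With the quasi-likelihood test of edgeR and Benjamini-Hochberg adjustment over all genes at 0.05, none of the 46 was called higher or lower, where 1.94% of all genes were called higher and 1.24% lower. Before adjustment for multiple tests, p was under 0.05 for 6 members below Control and 0 above (all genes, 5.93% and 8.45%). DESeq2 called MCM6 and PCNA lower and none higher (all genes, 3.17% lower and 3.88% higher). With limma-voom 0 members were called (all genes, 1.32% lower and 1.95% higher), and with the replicate number as a block 0 (all genes, 0.647% and 0.86%). Every CPI-613 library lay below every Control library for 12 members (all genes, 9.17%) and above for none (all genes, 11.8%).

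Libraries within a group also differed by GC content, as described further on. A second set of values, called adjusted, therefore has the trend of every library on transcript GC content and length taken out. In that fit the median was -0.22 for the members and 0.04 for all genes, and 5 members were called lower and 0 higher, against 5.03% and 6.69% of all genes. The 5 are ORC1, MCM3, PCNA, TYMS and SLBP. In this fit 13 members lay lower and 0 lay above Control with an unadjusted p under 0.05 (all genes, 11% and 14.6%), and 37 estimates were below 0 (all genes, 45.8%). The calls depended on which libraries were included: MCM3 alone remained without Control replicate 2 (all genes, 5.19% lower) or without Control replicate 3 (2.18%), none without Control replicate 1 (2.11%) or without CPI-613 replicate 2 (2.01%), and ORC1, MCM3, PCNA and TYMS without CPI-613 replicate 3 (all genes, 4.83% lower and 6.44% higher). Without CPI-613 replicate 1 the called genes were ORC1, MCM3, POLA1, TYMS, SLBP and CLSPN (all genes, 9.14% lower and 11.8% higher). With the block added there were 0 (all genes, 3.19% and 3.83%). After adjustment every CPI-613 library lay below every Control library for 16 members (all genes, 13.9%) and above for none (all genes, 17.9%). Of these 16 genes 10 were also among the 12 named by unadjusted CPM: ORC1, MCM3, MCM4, MCM10, POLD3, POLE2, PCNA, RRM1, SLBP and TIPIN. Both scales come from the same libraries, so they are not independent. The share of all genes apart on both scales was not taken, so the 10 cannot be set against it.

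**Figure D1:**
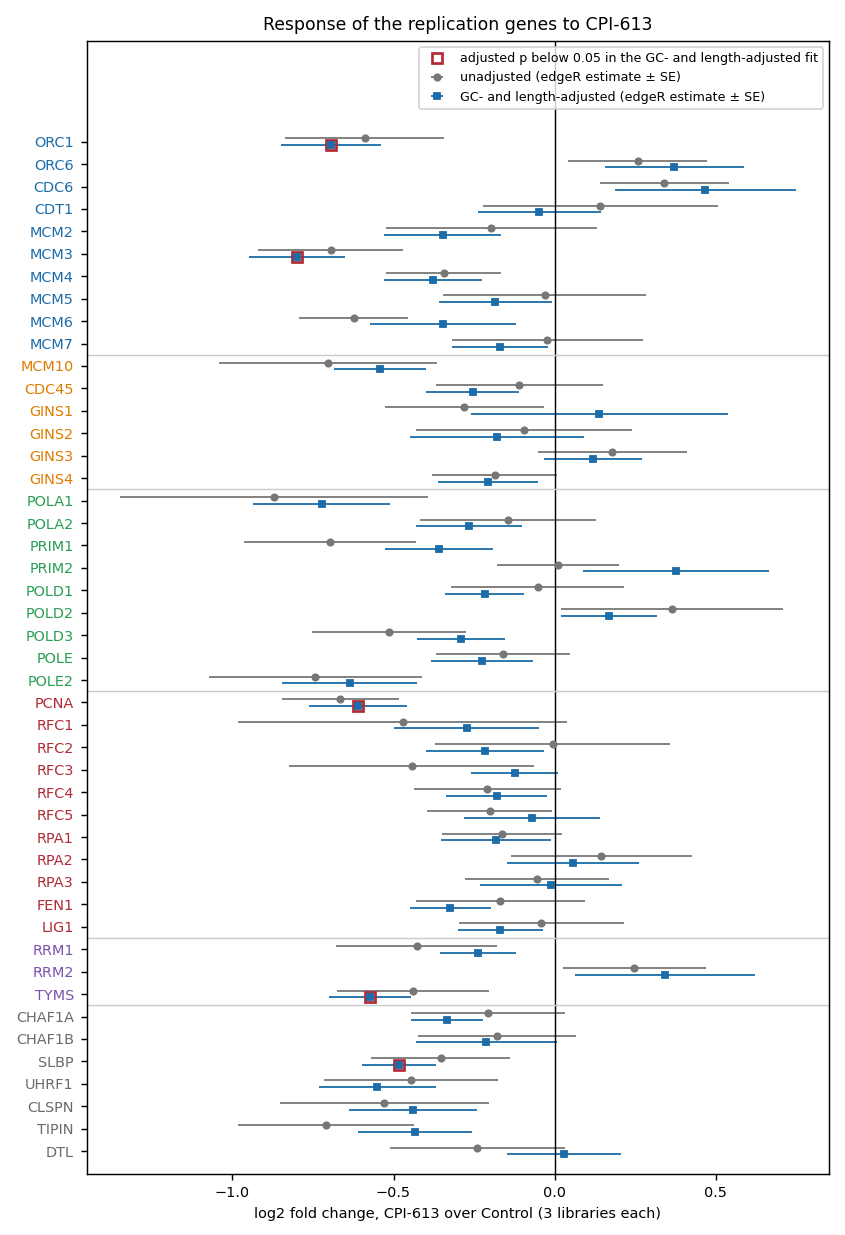
Log2 fold change of each replication gene, CPI-613 over Control (3 libraries each, horizontal axis), as edgeR estimates with SE bars; grey circles are unadjusted, blue squares GC- and length-adjusted, and gene names are coloured by role class. Most points lie left of 0, and the 5 red frames mark ORC1, MCM3, PCNA, TYMS and SLBP, called lower in the adjusted edgeR fit and not in the unadjusted one.

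RefSeq promoters (GRCh38.p14, 250 bases before to 50 after each start) were found for 40 of the 46 genes and not for MCM4, MCM5, GINS4, POLD3, RPA2 and RPA3. The letters TTTGGCGC, TTTCCCGC, TTTGGCGG or TTTCCCGG, read on either strand and known as E2F-type sequences, occurred in 24 of these 40 genes (60%), in 8.99% of the 10379 tested genes with a promoter and in 4.31% of all 35116 promoter windows. CCAAT, the core letters of the NF-Y element, occurred in 25 of 40 (62.5%), and in 43.3% of tested genes and 34.6% of windows. TTTGAA or TTCGAA, the letters of the cell cycle homology region known from mitotic genes, occurred in 2 of 40 (5.0%), against 15.5% of tested genes and 16.4% of windows. A match is a description of the letters and not of binding. Matches can share bases, and none do in the stretches shown. The 5 stretches below end 1 base before the transcription start. Shown are genes toward the low end of the response (MCM3, MCM6, PCNA) and the gene with the highest licensing estimate (CDC6). Also shown is POLA1, which had the lowest mean FPKM in Control and, on counts as deposited, the most negative estimate of the 46. After GC and length adjustment the most negative estimate was that of MCM3. The stretches run 5′ to 3′ along the gene, and capitals mark E2F-type and CCAAT letters on either strand.
MCM3: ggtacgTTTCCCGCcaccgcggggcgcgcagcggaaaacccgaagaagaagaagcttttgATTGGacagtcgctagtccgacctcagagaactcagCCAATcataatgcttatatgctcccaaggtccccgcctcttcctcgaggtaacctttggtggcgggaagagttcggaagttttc
MCM6: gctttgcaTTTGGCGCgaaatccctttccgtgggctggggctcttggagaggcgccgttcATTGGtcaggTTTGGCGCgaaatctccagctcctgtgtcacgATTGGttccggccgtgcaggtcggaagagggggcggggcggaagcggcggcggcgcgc
CDC6: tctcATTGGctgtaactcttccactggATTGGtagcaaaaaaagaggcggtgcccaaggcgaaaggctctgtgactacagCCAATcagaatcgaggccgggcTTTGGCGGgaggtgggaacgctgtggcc
PCNA: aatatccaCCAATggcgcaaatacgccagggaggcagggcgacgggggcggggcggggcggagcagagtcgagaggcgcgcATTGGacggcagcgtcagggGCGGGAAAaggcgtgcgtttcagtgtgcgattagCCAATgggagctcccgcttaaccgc
POLA1: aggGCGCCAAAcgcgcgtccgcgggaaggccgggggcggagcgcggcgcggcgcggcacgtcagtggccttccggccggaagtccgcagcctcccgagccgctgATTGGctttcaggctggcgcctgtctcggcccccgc
They lie at chr6:52284743-52284922, minus strand (MCM3), chr2:135876444-135876603, minus strand (MCM6), chr17:40287749-40287878, plus strand (CDC6), chr20:5126623-5126782, minus strand (PCNA) and chrX:24693778-24693917, plus strand (POLA1). In these stretches MCM6 holds 2 E2F-type matches and the other 4 hold 1 each, while CCAAT occurs 3 times in CDC6 and PCNA, 2 times in MCM3 and MCM6 and 1 time in POLA1. By median log2 fold change the 24 genes with an E2F-type match lay at -0.36 and the 16 without at -0.17. After GC and length adjustment the medians were -0.27 and -0.21, and 3 of the 24 and 2 of the 16 were called lower (all genes, 5.03%); no difference between the groups was tested.

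Levels can be compared between genes only per transcript length. The unlabelled values per gene, taken as FPKM (counts divided by transcript length and library total), served for that. Their division by length was assumed and not checked. In Control the 46 genes spanned a 43-fold range around a median of 31.4 FPKM. MCM4 was highest at 166 ± 13.5 FPKM (mean ± SD, n = 3), followed by MCM7 at 162 ± 32 and POLD2 at 139 ± 31 FPKM. CLSPN at 4.45 ± 0.421 and POLA1 at 3.86 ± 1.08 FPKM were lowest. Neighbours in this order could mostly not be told apart, since the Control ranges overlapped in 41 of 45 neighbouring pairs; they did not between POLD2 and MCM3, RPA1 and RFC4, GINS4 and TIPIN, and POLE2 and CLSPN. With CPI-613 the median was 25.3 FPKM. FPKM are scaled by library total, and on this scale all genes together also lay lower. Their median log2 fold change by limma on FPKM was -0.2 and -0.16 with pseudocounts of 0.1 and 1.

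Subunits of one complex did not share one level. Of the 6 helicase subunits MCM4 measured 6.66 times the FPKM of MCM6 in Control, and POLD2, the accessory subunit of DNA polymerase delta, 6.73 times that of POLD3. PRIM1, the catalytic primase subunit, measured 8.08 times the FPKM of POLA1, the catalytic subunit of its partner polymerase alpha. The 4 GINS subunits lay within 1.59-fold of each other and the 3 subunits of replication protein A within 1.85-fold. The values were taken to be divided by transcript lengths that the authors chose, so these ratios also carry that assumption and that choice.

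**Figure D2:**
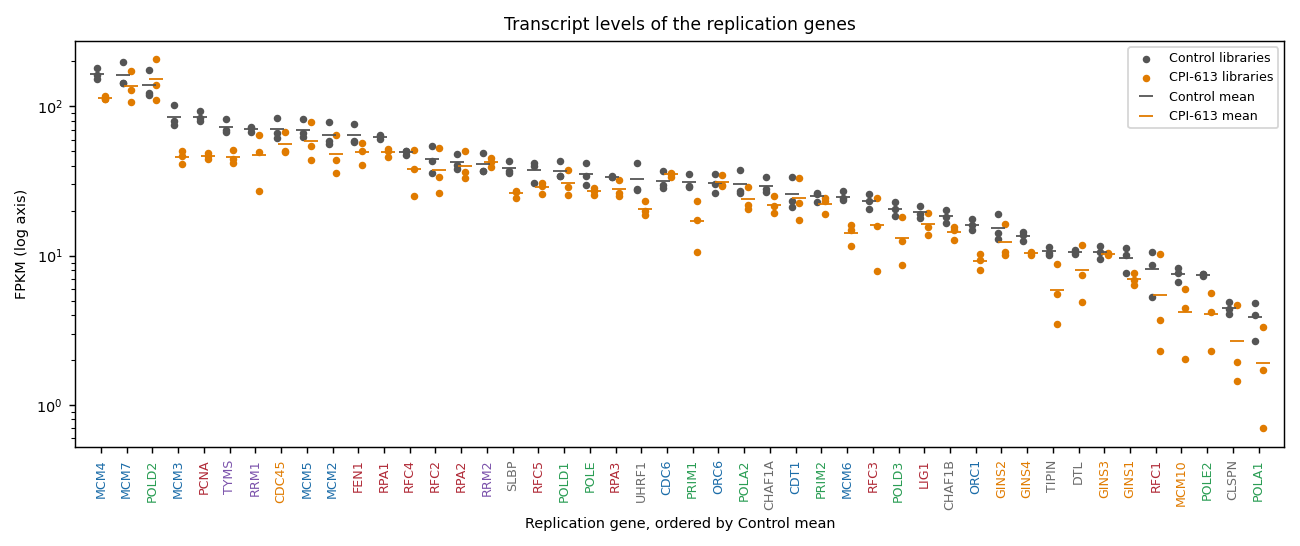
FPKM of each replication gene in each library (log axis), ordered by Control mean; grey points are Control and orange points CPI-613 libraries, dashes are group means of 3 libraries, and gene names are coloured by role class. Levels run from MCM4 at 166 to POLA1 at 3.86 FPKM in Control, and the orange points of POLA1 and RFC1 are spread widest.

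Among the 10 licensing genes the median log2 fold change was -0.11, with 7 estimates below 0 (-0.27 and 8 when GC- and length-adjusted). Subunits of the same helicase had unlike values: MCM3 and MCM6 lay lower with no overlap between groups, as did MCM4, while the groups overlapped for MCM2, MCM5 and MCM7. MCM3 (gene ID 4172, chromosome 6 at 52264015 to 52284742, GRCh38) measured 204, 271 and 196 CPM in Control replicates 1 to 3 and 121, 122 and 171 CPM in CPI-613 replicates 1 to 3. All 3 CPI-613 libraries lay below all 3 Control libraries. Its log2 fold change of -0.70 (SE 0.23) was not called (edgeR, Benjamini-Hochberg adjusted p = 0.192), and the adjusted -0.80 (SE 0.15) was (edgeR, Benjamini-Hochberg adjusted p = 0.0133, the alternatives giving 0.0105 to 0.659). MCM6 measured 85.6, 80.2 and 79.2 CPM in Control replicates 1 to 3 and 53.8, 56 and 49.1 CPM in CPI-613 replicates 1 to 3, so the groups stood apart with little spread. Its log2 fold change was -0.62 (SE 0.17), not called by edgeR (adjusted p = 0.122), and -0.35 (SE 0.23) when adjusted, where the groups overlapped. MCM2 measured 169.6, 244 and 165 CPM in Control replicates 1 to 3 and 109.9, 149 and 247 CPM in CPI-613 replicates 1 to 3. CPI-613 replicate 3 was its highest library and CPI-613 replicate 1 its lowest, and the log2 fold change was -0.20 (SE 0.33) (edgeR, Benjamini-Hochberg adjusted p = 0.843). MCM5 and MCM7 had the same order of CPI-613 libraries, with log2 fold changes of -0.03 (SE 0.32) and -0.02 (SE 0.30). MCM4, the subunit with the highest mean FPKM in Control, had -0.34 (SE 0.18) with no overlap of the groups.

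The loading factors had estimates on both sides of 0. ORC1 (gene ID 4998, chromosome 1 at 52372829 to 52409503), an ATPase subunit of the origin recognition complex, measured 38.5, 49.5 and 42.8 CPM in Control replicates 1 to 3 and 22.3, 28.9 and 35.6 CPM in CPI-613 replicates 1 to 3. The groups did not overlap, and the log2 fold change was -0.59 (SE 0.25) unadjusted (edgeR, Benjamini-Hochberg adjusted p = 0.336) and -0.69 (SE 0.15) adjusted for GC content and length (edgeR, Benjamini-Hochberg adjusted p = 0.0272, the alternatives giving 0.0159 to 0.789). ORC6, another subunit, had an estimate on the other side of 0, 0.26 (SE 0.22). CDC6 (gene ID 990, chromosome 17 at 40287879 to 40304657), which recruits the helicase to the origin, measured 81.7, 108 and 78.7 CPM in Control replicates 1 to 3 and 104, 108 and 128 CPM in CPI-613 replicates 1 to 3. Control replicate 2 lay inside the CPI-613 range, and neither the log2 fold change of 0.34 (SE 0.20) nor the adjusted 0.47 (SE 0.28) was called (edgeR, Benjamini-Hochberg adjusted p = 0.549 and 0.346). CDT1, the licensing factor destroyed in S phase, measured 50.6, 79.5 and 47.7 CPM in Control replicates 1 to 3 and 40.3, 59 and 97 CPM in CPI-613 replicates 1 to 3. Its CPI-613 libraries spanned its whole Control range, and the estimate changed sign with the adjustment, from 0.14 (SE 0.37) to -0.05 (SE 0.19), with no call by edgeR (adjusted p = 0.893 and 0.902).

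The 6 genes of helicase activation had a median log2 fold change of -0.15 (-0.19 when adjusted), and 0 were called by edgeR in either fit, by DESeq2 or by limma-voom. These fits called 1.24% to 5.03% of all genes lower and 1.94% to 6.69% higher. An unadjusted p under 0.05 was reached by 0 on counts as deposited (all genes, 5.93% lower and 8.45% higher). In the GC- and length-adjusted fit MCM10 reached it, lying lower (all genes, 11% lower and 14.6% higher). MCM10, which helps the helicase to fire, measured 29.9, 28 and 33.2 CPM in Control replicates 1 to 3 and 24.8, 20.6 and 10.5 CPM in CPI-613 replicates 1 to 3. The groups did not overlap, yet CPI-613 replicate 3 held 0.425 of the level of CPI-613 replicate 1. Its log2 fold change was -0.70 (SE 0.34) and, adjusted, -0.54 (SE 0.14), just short of the threshold (edgeR, Benjamini-Hochberg adjusted p = 0.0503). GINS3 measured 18.1, 21.7 and 17.1 CPM in Control replicates 1 to 3 and 19.1, 21.1 and 24.2 CPM in CPI-613 replicates 1 to 3, with overlapping groups and a log2 fold change of 0.18 (SE 0.23). CDC45, GINS1, GINS2 and GINS4 had estimates from -0.28 to -0.09, and in each the groups overlapped. The estimate of GINS1 was 0.14 (SE 0.40) after adjustment, on the other side of 0.

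Of the 9 polymerase and primase genes 7 had estimates below 0, with a median log2 fold change of -0.16 (-0.27 adjusted) and no call by edgeR in either fit, by DESeq2 or by limma-voom. These fits called 1.24% to 5.03% of all genes lower and 1.94% to 6.69% higher. An unadjusted p under 0.05 was reached by PRIM1 on counts as deposited (all genes, 5.93% lower and 8.45% higher). In the GC- and length-adjusted fit POLA1 and POLE2 reached it (all genes, 11% lower and 14.6% higher). All of these lay lower. POLA1 (gene ID 5422, chromosome X at 24693918 to 24996986), the catalytic subunit of the polymerase that starts each strand, measured 23, 13.7 and 19.2 CPM in Control replicates 1 to 3 and 16.5, 9.61 and 4.42 CPM in CPI-613 replicates 1 to 3. These were the widest CPI-613 values of the class relative to their mean. The log2 fold change of -0.87 (SE 0.48) was not called (edgeR, Benjamini-Hochberg adjusted p = 0.512), and neither was the adjusted -0.72 (SE 0.21) (edgeR, Benjamini-Hochberg adjusted p = 0.0713), although after adjustment the groups no longer overlapped. PRIM1, POLD3 and POLE2, an accessory subunit of polymerase epsilon, lay below Control in all 3 CPI-613 libraries, with log2 fold changes of -0.70 (SE 0.27), -0.52 (SE 0.24) and -0.74 (SE 0.33). After adjustment these were -0.36 (SE 0.17), -0.29 (SE 0.14) and -0.64 (SE 0.21), and the groups overlapped for PRIM1. POLD2 measured 158, 241 and 155 CPM in Control replicates 1 to 3 and 150.2, 212 and 351 CPM in CPI-613 replicates 1 to 3. The highest and the lowest of its 6 values were both CPI-613 libraries, and the log2 fold change was 0.36 (SE 0.34) (edgeR, Benjamini-Hochberg adjusted p = 0.749). The large catalytic subunits POLD1 and POLE had -0.05 (SE 0.27) and -0.16 (SE 0.21), PRIM2 0.01 (SE 0.19) and POLA2 -0.14 (SE 0.27), all with overlapping groups.

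In the class of clamp, single-strand binding and ligation 10 of 11 estimates were below 0, with a median log2 fold change of -0.17 (-0.18 adjusted). PCNA (gene ID 5111, chromosome 20 at 5114953 to 5126622), the sliding clamp, measured 77.8, 93.7 and 77.1 CPM in Control replicates 1 to 3 and 48.5, 52.4 and 55.9 CPM in CPI-613 replicates 1 to 3. The lowest Control library stood above the highest CPI-613 library by more than the whole CPI-613 range. The log2 fold change of -0.66 (SE 0.18), a fold of 0.631, was not called by edgeR (Benjamini-Hochberg adjusted p = 0.123) and was called after adjustment at -0.61 (SE 0.15) (edgeR, Benjamini-Hochberg adjusted p = 0.0404, the alternatives giving 0.0124 to 0.504). On the FPKM scale PCNA measured 83.1, 92.6 and 79.8 FPKM in Control and 48.7, 46.7 and 44.8 FPKM with CPI-613. The 5 subunits of replication factor C, which loads PCNA, were not called either, and their log2 fold changes were -0.47 (SE 0.51), -0.01 (SE 0.36), -0.44 (SE 0.38), -0.21 (SE 0.23) and -0.20 (SE 0.20) for RFC1 to RFC5, with overlapping groups in each. RFC1 had the largest standard error of all 46 genes. RPA2, a subunit of replication protein A, which coats single-stranded DNA, measured 49.4, 63.4 and 47.7 CPM in Control replicates 1 to 3 and 43.1, 52.9 and 81.4 CPM in CPI-613 replicates 1 to 3, with overlapping groups and a log2 fold change of 0.14 (SE 0.28). RPA1 and RPA3 had -0.16 (SE 0.19) and -0.06 (SE 0.22). FEN1, the flap endonuclease, and LIG1, the ligase that joins Okazaki fragments, had -0.17 (SE 0.26) and -0.04 (SE 0.26), and in FEN1 alone of these the groups stood apart after adjustment, at -0.32 (SE 0.12).

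Of the 3 nucleotide genes TYMS and RRM1 had estimates below 0 and RRM2 above. TYMS (gene ID 7298, chromosome 18 at 657653 to 673578), thymidylate synthase, measured 80.9, 106 and 81.8 CPM in Control replicates 1 to 3 and 51.7, 62.7 and 83.4 CPM in CPI-613 replicates 1 to 3. CPI-613 replicate 3 lay inside the Control range, so the groups overlapped, and the log2 fold change of -0.44 (SE 0.24) was not called (edgeR, Benjamini-Hochberg adjusted p = 0.502). After adjustment its CPM were 87.3, 102 and 88.7 in Control and 58.8, 58.8 and 69.3 with CPI-613 and did not overlap, and the log2 fold change of -0.57 (SE 0.13) was called (edgeR, Benjamini-Hochberg adjusted p = 0.027, the alternatives giving 0.0207 to 0.915). Exons of ENOSF1 and TYMSOS overlap those of TYMS on the other strand, and the sources used here do not state strand-aware counting, so reads of these genes cannot be told apart.

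The subunits of ribonucleotide reductase, which makes deoxynucleotides, had estimates of opposite sign. RRM1, the large subunit, measured 192, 189.9 and 194 CPM in Control replicates 1 to 3 and 179.6, 154 and 95.1 CPM in CPI-613 replicates 1 to 3. The Control libraries hardly differed and all CPI-613 libraries lay below them, CPI-613 replicate 3 the lowest; the log2 fold change was -0.43 (SE 0.25), and -0.24 (SE 0.12) adjusted, neither called (edgeR, Benjamini-Hochberg adjusted p = 0.546 and 0.253). RRM2, the small subunit that is made in S phase, measured 102, 145 and 105 CPM in Control replicates 1 to 3 and 115, 138 and 163 CPM in CPI-613 replicates 1 to 3. The groups overlapped and the log2 fold change was 0.25 (SE 0.22), or 0.34 (SE 0.28) adjusted (edgeR, Benjamini-Hochberg adjusted p = 0.735 and 0.495). The difference between the 2 subunits was not tested.

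All 7 genes of chromatin assembly and fork control had estimates below 0, with a median log2 fold change of -0.35 (-0.43 adjusted, with 6 below 0). SLBP (gene ID 7884, chromosome 4 at 1692731 to 1712319), which binds the stem-loop of histone mRNA, measured 52.2, 65.2 and 52 CPM in Control replicates 1 to 3 and 36.4, 45.9 and 50.3 CPM in CPI-613 replicates 1 to 3. The groups stood apart by a narrow margin, and the log2 fold change of -0.35 (SE 0.22) (edgeR, Benjamini-Hochberg adjusted p = 0.573) became -0.48 (SE 0.11) and was called after adjustment (edgeR, Benjamini-Hochberg adjusted p = 0.0332, the alternatives giving 0.0332 to 0.997). TIPIN, which with its partner stabilizes stalled forks, measured 16.5, 16.2 and 14.7 CPM in Control replicates 1 to 3 and 12.1, 9.69 and 7.13 CPM in CPI-613 replicates 1 to 3. All CPI-613 libraries lay below Control, with a log2 fold change of -0.71 (SE 0.27) that was not called (edgeR, Benjamini-Hochberg adjusted p = 0.288). After GC and length adjustment it was -0.43 (SE 0.18), also not called. CHAF1B, a chromatin assembly factor subunit, measured 39.3, 46.7 and 34.4 CPM in Control replicates 1 to 3 and 27.8, 35.7 and 43 CPM in CPI-613 replicates 1 to 3, with overlapping groups. Its partner CHAF1A had -0.21 (SE 0.24) and, adjusted, -0.33 (SE 0.11) with no overlap of the groups. UHRF1, which keeps DNA methylation through replication, had -0.45 (SE 0.27) and, adjusted, -0.55 (SE 0.18) with no overlap of the groups. CLSPN, the checkpoint adaptor claspin, and DTL, which directs the destruction of CDT1, had -0.53 (SE 0.33) and -0.24 (SE 0.27); for both, CPI-613 replicate 1 lay within or above the Control range. The adjusted estimate of DTL was 0.03 (SE 0.18), on the other side of 0.

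**Figure D3:**
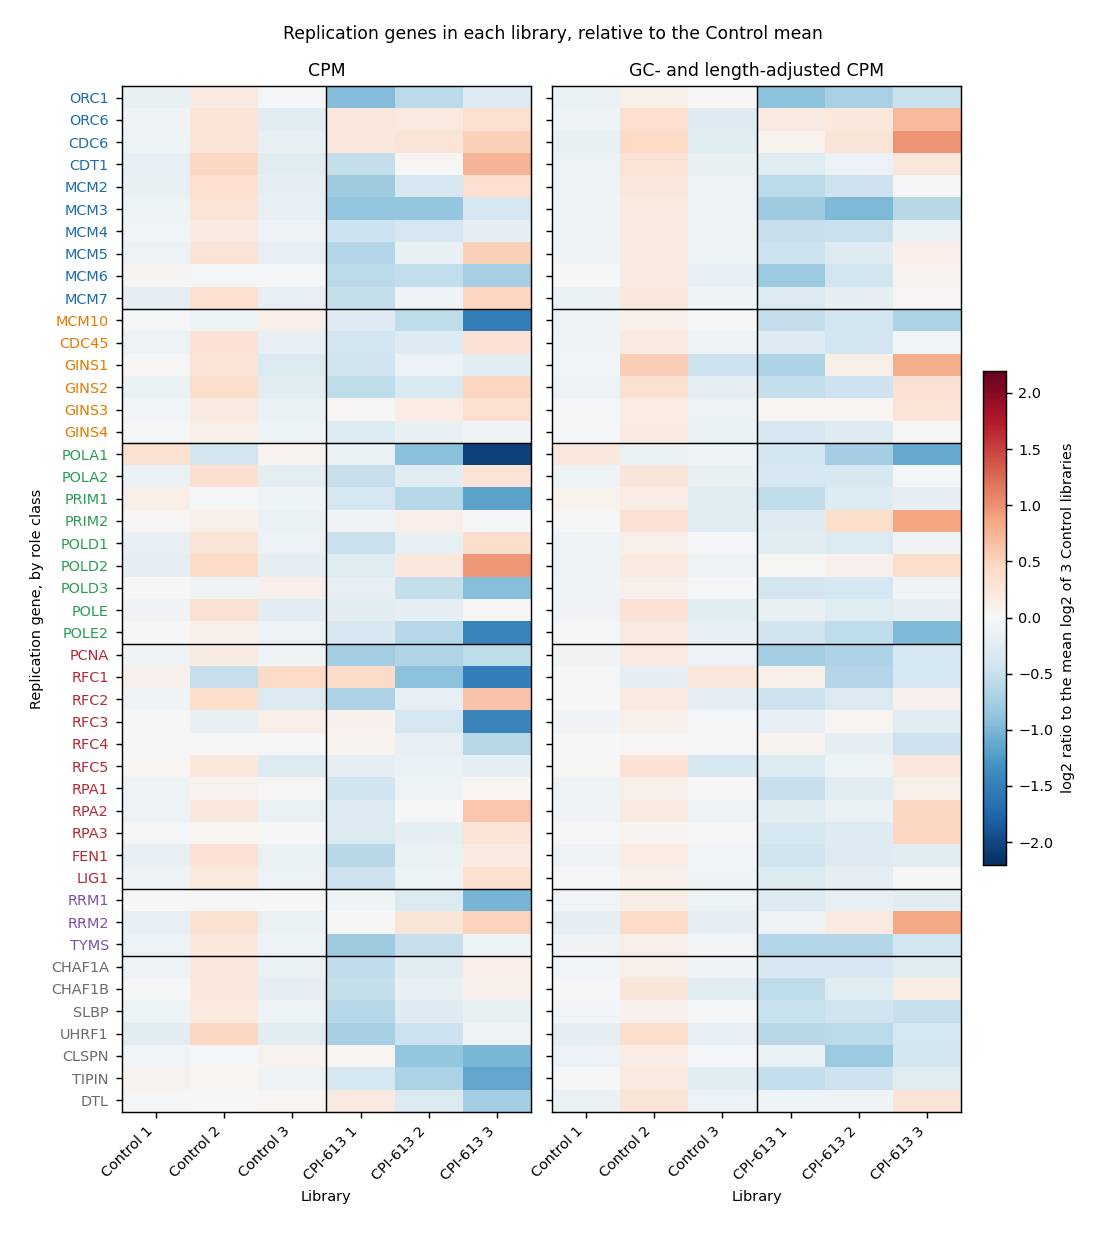
Log2 ratio of each replication gene (rows, by role class) in each library (columns) to the mean of the 3 Control libraries, from CPM (left) and GC- and length-adjusted CPM (right); blue is lower, red higher. On the left CPI-613 replicate 3 has both the deepest blue, in genes such as POLA1 and RFC1, and red in genes such as POLD2; on the right ORC1, MCM3, PCNA, TYMS and SLBP are blue in all 3 CPI-613 libraries.

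Licensing, polymerase and nucleotide genes were compared by the median log2 ratio to the Control mean in each library. For licensing it was -0.56, -0.26 and 0.36 in CPI-613 replicates 1 to 3, and Control replicates 1 to 3 lay at -0.12, 0.30 and -0.17. Polymerase and primase genes lay at -0.27, -0.25 and -0.05 with CPI-613 and -0.01, 0.12 and -0.12 in Control, and the 3 nucleotide genes at -0.10, -0.32 and -0.09 with CPI-613 and -0.13, 0.25 and -0.12 in Control. CPI-613 replicates 1 and 2 thus lay below all Control libraries in licensing and polymerase genes, and replicate 3 did not. After GC and length adjustment the CPI-613 values were -0.49, -0.34 and 0.05 for licensing, -0.38, -0.32 and -0.10 for polymerase and primase, and -0.29, -0.18 and -0.23 for nucleotide genes. The order of the 3 classes changed between CPI-613 libraries on both scales. With members chosen knowing earlier results, no test of the class medians was made.

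**Figure D4:**
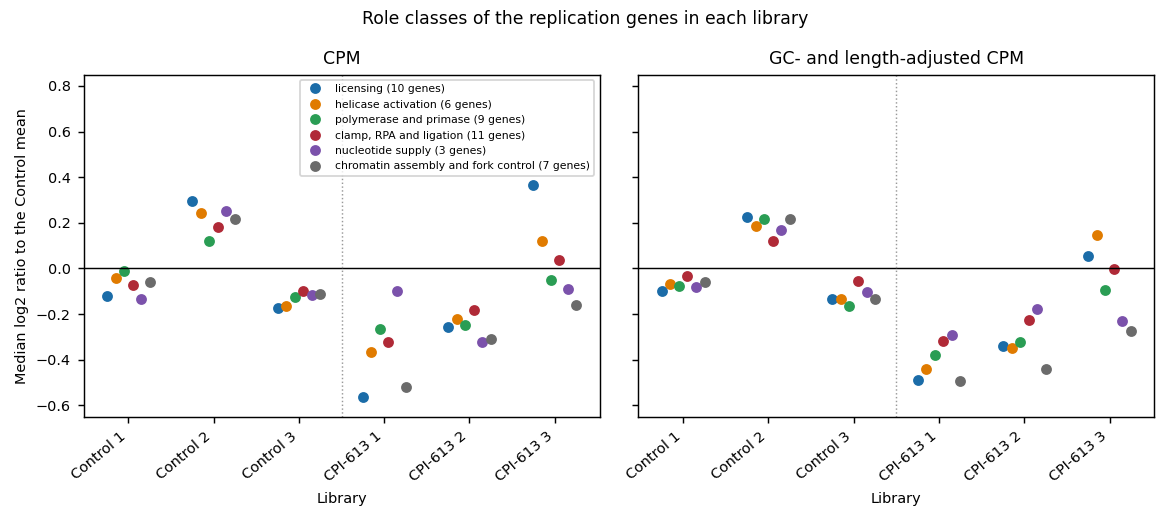
Median log2 ratio to the Control mean over the genes of each role class (colours) in each library, from CPM (left) and GC- and length-adjusted CPM (right). CPI-613 replicates 1 and 2 lie below 0 in all 6 classes, Control replicate 2 lies above 0 in all 6, and the licensing point of CPI-613 replicate 3 moves from 0.36 to 0.05 with the adjustment.

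The libraries of a group differed among themselves in the replication genes as a set. Control replicate 2 was the highest Control library in 34 of the 46 genes, and in 44 after GC and length adjustment, with a median log2 ratio to the Control mean of 0.22 (0.19 adjusted) against -0.08 and -0.14 in Control replicates 1 and 3. CPI-613 replicate 3 was the highest CPI-613 library in 30 genes, and in 36 after adjustment, and its median was -0.06 (-0.05 adjusted) against -0.40 and -0.25 in CPI-613 replicates 1 and 2. Across the 46 genes the log2 difference of Control replicate 2 from the other Control libraries had a Pearson r of 0.69 and a Spearman rho of 0.78 with GC content, and the part of GC content in these values was not tested. Without Control replicate 2 the median log2 fold change of the 46 genes was -0.11 and without CPI-613 replicate 3 it was -0.33.

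Within the CPI-613 group the replication genes separated by the GC content of their transcripts, which ran from 39.1% in RFC3 to 65% in POLD1. Of the 16 members under 45% GC, 13 were lower in CPI-613 replicate 3 than in replicate 1, with a median ratio of 0.55. All 9 members at 55% GC or more were higher, with a median ratio of 1.99. RFC1 and POLA1, at 41.7% and 42.9% GC, were at 0.263 and 0.267 of their level in replicate 1, while RFC2 and CDT1, at 53.6% and 64.9%, were at 2.46 and 2.41. Across the 46 genes, which share these libraries and are not independent, the log2 ratio of the 2 libraries had a Pearson r of 0.76 and a Spearman rho of 0.87 with GC content (0.76 and 0.79 over 12566 tested genes). The adjustment removes this relation by construction and lowered the SD of the log2 ratio over the members from 0.87 to 0.45. The median log2 fold change of the members under 45% GC was -0.49 and of those at 55% or more -0.04, and after adjustment -0.28 and -0.18.

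**Figure D5:**
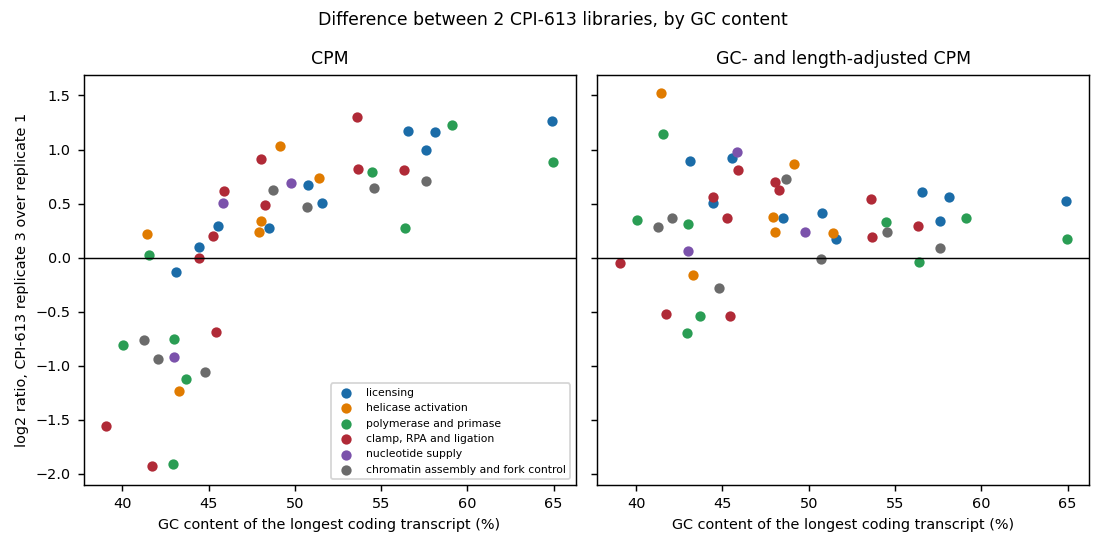
Log2 ratio of CPI-613 replicate 3 to CPI-613 replicate 1 (vertical axis) against the GC content of the longest coding transcript in percent (horizontal axis) for the 46 replication genes, coloured by role class, from CPM (left) and GC- and length-adjusted CPM (right). On the left the ratio climbs from RFC3 and RFC1 at low GC to RFC2 and CDT1 at high GC; on the right no such slope is left.

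Further genes of the same processes, in 5 lists with 116 genes that were all tested, gave few calls. Of 34 other replisome genes 0 were called by edgeR in either fit, by DESeq2 or by limma-voom, with a list median of -0.26. These fits called 1.24% to 5.03% of all genes lower and 1.94% to 6.69% higher. An unadjusted p under 0.05 was reached by GMNN on counts as deposited (all genes, 5.93% lower and 8.45% higher). In the GC- and length-adjusted fit 8 genes reached it (all genes, 11% lower and 14.6% higher). All of these lay below Control. GMNN, the inhibitor of CDT1, measured 37.9, 39.9 and 35.6 CPM in Control replicates 1 to 3 and 29.8, 23.8 and 21.8 CPM in CPI-613 replicates 1 to 3, all CPI-613 libraries below Control, with a log2 fold change of -0.59 (SE 0.22). NASP, a histone chaperone, measured 224, 201 and 233 CPM in Control replicates 1 to 3 and 204, 138 and 91.4 CPM in CPI-613 replicates 1 to 3, with overlapping groups. Of 20 other nucleotide genes 0 were called by edgeR on counts as deposited or by limma-voom, with a median of -0.01. In edgeR an unadjusted p under 0.05 was reached by 2 above and 2 below Control (all genes, 8.45% and 5.93%). SAMHD1, which destroys deoxynucleotides, measured 30.3, 24.7 and 33.8 CPM in Control replicates 1 to 3 and 18.2, 15.2 and 10.6 CPM in CPI-613 replicates 1 to 3. Its log2 fold change of -1.01 (SE 0.28) was called by DESeq2 and, at -0.96 (SE 0.14), after GC and length adjustment (edgeR, Benjamini-Hochberg adjusted p = 0.00509, the alternatives giving 0.00509 to 0.514). SAMHD1 was the 1 call among the 20 genes by DESeq2 (all genes, 3.17% lower and 3.88% higher). The adjusted fit also called 1 of the 20 (all genes, 5.03% lower and 6.69% higher). TK2, the mitochondrial thymidine kinase, measured 8.78, 8.78 and 7.64 CPM in Control replicates 1 to 3 and 11.8, 12.5 and 16.3 CPM in CPI-613 replicates 1 to 3, all CPI-613 libraries above Control, and was not called by edgeR (adjusted p = 0.252). Of 10 S-phase checkpoint genes 0 were called on counts as deposited by edgeR, DESeq2 or limma-voom, and 0 had an unadjusted p under 0.05 in edgeR. After GC and length adjustment HUS1 was called higher and RAD9A, its partner in the checkpoint clamp, lower (all genes, 6.69% and 5.03%). Their log2 fold changes in that fit were 0.66 (SE 0.17) and -0.63 (SE 0.13). HUS1 measured 13.4, 11.9 and 10.4 CPM in Control replicates 1 to 3 and 21.3, 18.4 and 10.9 CPM in CPI-613 replicates 1 to 3. Its groups overlapped. RAD9A measured 39.7, 44.5 and 37.4 CPM in Control replicates 1 to 3 and 23.5, 28.5 and 35.9 CPM in CPI-613 replicates 1 to 3. RAD1, the third subunit, measured 39.2, 45 and 44 CPM in Control replicates 1 to 3 and 52.7, 56.4 and 50.4 CPM in CPI-613 replicates 1 to 3. The groups did not overlap in RAD9A, lying lower with CPI-613, or in RAD1, lying higher. Of the 10 genes 1 stood apart in each direction (all genes, 9.17% lower and 11.8% higher). RAD1 was not called after GC and length adjustment (edgeR, Benjamini-Hochberg adjusted p = 0.221).

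Upstream of these genes, 22 regulators of the G1 to S transition had a median log2 fold change of -0.27 with 1 call in each direction (all genes, 1.94% higher and 1.24% lower). CDKN1A, the cyclin-dependent kinase inhibitor p21, rose, measuring 66.5, 54.3 and 86.4 CPM in Control replicates 1 to 3 and 181, 259.5 and 358 CPM in CPI-613 replicates 1 to 3 (edgeR, Benjamini-Hochberg adjusted p = 0.0216). E2F2, an activating E2F factor, fell, measuring 11.2, 15.8 and 11.5 CPM in Control replicates 1 to 3 and 2.64, 2.15 and 4.34 CPM in CPI-613 replicates 1 to 3 (edgeR, Benjamini-Hochberg adjusted p = 0.0273). The log2 fold changes were 1.95 (SE 0.31) and -2.07 (SE 0.35), and the groups did not overlap in either gene. On counts as deposited both calls were lost without Control replicate 1, 2 or 3 or without CPI-613 replicate 2, where the log2 fold changes were 1.77 to 2.14 and -2.16 to -1.87. Over all genes, leaving out Control replicate 1 or 3 gave edgeR 0 calls, leaving out CPI-613 replicate 2 gave 7 (all higher), and leaving out Control replicate 2 gave 125 higher and 94 lower. For the 3 Control replicates in turn and then CPI-613 replicate 2, edgeR's adjusted p was 0.14, 0.0713, 0.0935 and 0.117 for CDKN1A, and 0.128, 0.0791, 0.125 and 0.16 for E2F2, whose call was also lost with the replicate block (0.0732). After GC and length adjustment both genes were called in each of the 6 fits without 1 library, with edgeR's adjusted p of 0.00357 to 0.0263 and 0.00154 to 0.0122. Among the replication genes themselves no estimate reached the size of either. After GC and length adjustment E2F1 and E2F8 were also called lower and E2F7 higher, at -0.96 (SE 0.17), -1.32 (SE 0.19) and 0.94 (SE 0.16) (all genes, 5.03% lower and 6.69% higher). On counts as deposited none of these was called (edgeR, Benjamini-Hochberg adjusted p = 0.336, 0.0677 and 0.457). There CPI-613 replicate 3 lay inside the Control range for E2F1 and below every Control library for E2F7. Of 30 genes of G2 and mitosis 0 were called by edgeR in either fit, by DESeq2 or by limma-voom. These fits called 1.24% to 5.03% of all genes lower and 1.94% to 6.69% higher. An unadjusted p under 0.05 was reached by 0 on counts as deposited and by TOP2A and KIF11, both below Control, in the GC- and length-adjusted fit (all genes, 11% lower and 14.6% higher). The median log2 fold change of the 30 genes was -0.27 (-0.18 adjusted). By library, their median log2 ratio to the Control mean was 0.15, -0.26 and -1.09 in CPI-613 replicates 1 to 3, where the replication genes lay at -0.40, -0.25 and -0.06, so CPI-613 replicate 3 was the lowest for the mitotic genes and the highest for the replication genes. After adjustment the values were -0.00, -0.18 and -0.13 against -0.37, -0.29 and -0.05. The groups stood apart as lower in 0 of the 30 genes (all genes, 9.17%) and in 2 after adjustment (all genes, 13.9%), and the difference between the lists was not tested. MKI67, a proliferation marker, measured 381, 258 and 379 CPM in Control replicates 1 to 3 and 347, 132 and 77.7 CPM in CPI-613 replicates 1 to 3, and UBE2C, a ubiquitin-conjugating enzyme of mitosis, 56.4, 95 and 54.4 CPM in Control replicates 1 to 3 and 70.9, 96.9 and 121 CPM in CPI-613 replicates 1 to 3. CPI-613 replicate 3 was lowest in MKI67 and highest in UBE2C, and the groups overlapped in both.

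The libraries held 11531942 to 15486513 counts, and no pair of a group agreed within counting noise. Of 10 squamous markers 9 were present, with summed FPKM of 4255 to 6444 in Control and 2925 to 5716 with CPI-613, and SOX2 was at 0.03 to 0.15 FPKM where above 0. Of 8 leukocyte markers 5 were in the table; PTPRC, which defines the lineage, was at 0 to 0.07 FPKM and HLA-DRA at 0 in all CPI-613 libraries; the list summed to 43.9 to 71.4 FPKM in Control and 28.98 to 46.8 with CPI-613, nearly all of it CD68 and CD14. Fibroblast and endothelial markers summed to 6.77 to 8.54 and 5.74 to 6.14 FPKM, mostly COL1A1. Their part in the replication genes' values was not tested.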

How the data were processed

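RNA was sequenced from 3 Control and 3 CPI-613 libraries of HN12 cells. The submitters' processing notes list hg38, and without roles STAR 2.5, HTSeq, CASAVA, DESeq2 and edgeR 3.16.5. Annotation and strand setting: not given in the sources used here. As 1 table the authors deposited estimated counts for RefSeq transcripts. As another they deposited values per gene that they did not label and that were taken as FPKM. In 1136 genes with 1 transcript these values followed the inverse library total between libraries, within 0.6%. Transcript length cancels in that check, so the division by length was assumed and not checked. In 27 transcripts of CPI-613 replicate 1 a day and month stand in place of a number; they were left out, and none belongs to a replication gene. Counts were summed per gene and rounded (53 genes without a symbol, 0.0163% of counts, were kept).

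Genes were filtered with filterByExpr (minimum count 10, total 15), normalised by TMM, and compared in edgeR 4.0.16 (glmQLFit and glmQLFTest) with group as the only covariate and Benjamini-Hochberg adjustment over 12671 genes. SE is the log2 fold change over the square root of F. CPM use TMM-scaled library sizes. For the GC- and length-adjusted fit, splines with 5 degrees of freedom in GC content and in log length, from the longest coding GENCODE 29 transcript (12601 genes, 99.45%), were fitted to each library's log2 CPM deviation (prior count 2) and entered as offsets. Other alternatives were DESeq2 1.42.0, limma 3.58.1 (voom, and log2(FPKM + 0.1) or + 1 with a mean of at least 0.5), 3 other scalings, 2 other filters, a replicate block and leaving out each library; those that combine the adjustment with a left-out library were added after seeing the data. The scripts were tested on simulated counts.

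The 46 members, the role classes and the lists were chosen with earlier results of these data known. Values in every library are given by rule for the members with the most positive and the most negative estimate in each class and for MCM2, CDC6, CDT1, PCNA, POLA1, RRM1, RRM2 and TYMS; from each further list up to 4 called genes, or the 2 with the lowest p. MCM6, ORC1, SLBP, the other genes given by estimate, HUS1, E2F1, E2F7 and E2F8 were chosen after their values were seen. Depth was 11531942 to 15486513 counts per library, and the SE of the members' log2 fold changes ran from 0.17 to 0.51. Exons of 16 of the 46 members overlap a gene on the other strand, whose reads may be included.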

Additional observations from a re-analysis of the deposited data

How the results depend on the processing

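No replication gene was called higher under any alternative run. Lower calls numbered 2 (MCM3 and PCNA) when scaled by library size only (all genes, 2.04%) and by limma on FPKM with pseudocounts of 0.1 and 1 (1.94% and 2.11%), 2 (MCM6 and PCNA) by DESeq2, and 5 when GC- and length-adjusted; with that adjustment 0, 1 and 1 were called without Control replicates 1, 2 and 3 and 6, 0 and 4 without CPI-613 replicates 1, 2 and 3, and without the adjustment 0 in each case. Those zeros say little about the members without Control replicate 1 or 3, where 0 of all genes were called in either direction, or without CPI-613 replicate 2, where 7 were called higher and 0 lower; without Control replicate 2 and CPI-613 replicates 1 and 3, 0.73%, 3.43% and 2.37% of all genes were called lower. The other alternatives gave 0. The median log2 fold change of the members moved from -0.20 to -0.39 when scaled by library size only, a scaling that moves the median of all genes from 0.02 to -0.17. By limma on FPKM with pseudocounts of 0.1 and 1 the members' median was -0.40 and -0.39, and that of all genes -0.2 and -0.16. The members' median was -0.33 to -0.11 without 1 library and -0.36 to -0.13 with the adjustment. The replicate numbers did not pair the libraries (correlation of same-numbered deviations 0.457, -0.096 and -0.608); with the replicate block 0 members were called and the median was -0.21, or -0.23 and 0 with the adjustment, and calls over all genes dropped from 246 higher and 157 lower to 109 and 82. Estimates of 20 of the 46 members changed sign under at least 1 alternative, GINS1 and DTL among them when adjusted. Among those given library by library these were CDT1, GINS3, RPA2, MCM2 and POLD2. CDT1 was at -0.0882 by library size only, -0.0469 adjusted, -0.049 with the block too, and -0.11 and -0.11 by limma on FPKM (0.0829 by limma-voom). Without 1 library CDT1 spanned -0.25 to 0.40 (-0.21 to 0.12 adjusted). GINS3 gave -0.0216, -0.0289 and -0.027 in the first and the FPKM fits, and RPA2 -0.077, -0.10 and -0.0993. With the adjustment and without Control replicate 3 RPA2 gave -0.00457. On counts as deposited MCM2 gave 0.0407 without CPI-613 replicate 1, and POLD2 gave -0.0246 without CPI-613 replicate 3. With the adjustment MCM2 and POLD2 kept their sign there, at -0.233 and 0.0533. Without 1 library RPA2 spanned -0.15 to 0.33 (-0.18 to 0.20 adjusted), MCM2 -0.57 to 0.0407 and POLD2 -0.0246 to 0.61. The cause of these changes was not tested.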
